A study of Neurospora crassa with 5 samples.

Results

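The genes of reactive oxygen metabolism described here are 8 genes of the filamentous fungus Neurospora crassa. They are the NADPH oxidases nox-1 (NCU02110) and nox-2 (NCU10775), the oxidase regulators nor-1 (NCU07850) and rac-1 (NCU02160), the superoxide dismutase sod-1 (NCU02133) and the catalases cat-1 (NCU08791), cat-2 (NCU05770) and cat-3 (NCU00355). They were chosen by locus tag, 8 of the 10591 gene rows of the count table, and all 8 passed the filter on low counts. RNA was sequenced from plates of 1 mutant strain, FGSC#4564, whose genotype is given as mat a[m1]s-3B cyh-1. The mating-type gene mat 1-2-1 is mutated in it, it also has the marker cyh-1, and both groups share this genotype. The crossed group (3 libraries, replicates 1, 2 and 3) was taken 2 h after conidia of the wild type FGSC#2489 had been added to protoperithecia, the immature female fruiting bodies. The uncrossed group (2 libraries, replicates 1 and 3) was taken at 0 h, just before crossing, from cultures grown for 6 days on crossing medium over cellophane. The culture age is given as 6 days for the crossed group too. Each library is the tissue of 1 plate. Neither a wild-type recipient nor conidia on their own were analysed here.

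NADPH oxidases carry electrons from NADPH across a membrane to oxygen, which makes superoxide. Superoxide dismutases turn superoxide into hydrogen peroxide, and catalases break hydrogen peroxide down to water and oxygen. In N. crassa the oxidase NOX-1 is known to be needed for female fertility and for normal hyphal growth and conidiation, and NOX-2 for the germination of ascospores. The regulatory subunit NOR-1 acts with both. The catalase CAT-1 is known as abundant in conidia, CAT-2 is a catalase-peroxidase found mainly in asexual structures, and CAT-3 is associated with growing hyphae.

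Total counts per library were 31063642 to 39592703 in the crossed group, against 25817200 and 39639683 in the uncrossed group. The libraries did not form compact groups. Over 8638 tested genes, the root mean square log2 difference of crossed replicate 1 was 0.60 to crossed replicate 2, 0.56 to crossed replicate 3 and 0.48 to uncrossed replicate 3. Ribosomal RNA genes took 19.3, 34.0 and 33.6% of the counts in crossed replicates 1, 2 and 3, against 14.3 and 21.3% in uncrossed replicates 1 and 3. The summed level of 5 conidial markers (eas, con-13, con-10, con-8 and con-6) was 35718, 64029 and 59585 CPM (counts scaled to library size) in crossed replicates 1, 2 and 3, against 15162 and 30530.5 CPM in uncrossed replicates 1 and 3. Most of the sum was eas. It had 27897, 47303 and 44024 CPM in crossed replicates 1, 2 and 3, against 9197 and 22810 CPM in uncrossed replicates 1 and 3. The log2 fold changes of all 5 markers were above 0, and none of the 5 was at 0 in any library. The groups did not overlap in 3 of them (eas, con-6 and con-13, all higher in crossed libraries), against 21.3% of all tested genes in that direction. They overlapped in con-8 and con-10. By edgeR 0 of the 5 passed the adjusted test, against 0.0463% of all tested genes. The same 3 had an unadjusted p under 0.05 by edgeR, against 10.3% of all tested genes in that direction. DESeq2 called these 3, against 5.51% of all genes with an adjusted p in that tool called higher. In bulk samples, RNA of added conidia and a change in the recipient cannot be told apart, nor can fewer cells of a type and less RNA per cell. All crossed libraries were taken at 2 h and all uncrossed ones at 0 h. Crossing therefore cannot be told apart from the time elapsed or the handling of the plates. The row of the mutated gene holds 6 values for 5 libraries and gave no check of the strain label, and no marker list of protoperithecia was used to check the tissue.

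The fitted changes of the catalases lay in opposite directions. Transcripts of cat-3 were 6.81-fold lower in the crossed libraries, those of cat-2 were 1.83-fold lower and those of cat-1 were 1.85-fold higher. Transcripts of sod-1 were 1.46-fold lower, while the log2 fold change was -0.020 for nor-1 (SE 0.10) and 0.0032 for rac-1 (SE 0.12). These are fits of 3 crossed and 2 uncrossed libraries. By edgeR's quasi-likelihood test, with p adjusted by Benjamini and Hochberg's method over all tested genes, 0 of the 8 passed the threshold of 0.05, against 4 of 8638 genes (0.0463%). At an unadjusted p under 0.05 there were 4 of the 8, 1 higher (cat-1) and 3 lower (sod-1, cat-2 and cat-3), against 21.3% of all tested genes, 10.3% higher and 11.0% lower. DESeq2 called 3 of the 8, 1 higher (cat-1) and 2 lower (cat-2 and sod-1), against 11.8% of all genes with an adjusted p in that tool, 5.51% higher and 6.29% lower. The groups were apart, with no overlap of their CPM, in 4 of the 8, again cat-1 (higher) and sod-1, cat-2 and cat-3 (lower), against 41.9% of all tested genes, 21.3% higher and 20.6% lower. The median log2 fold change was -0.26 over the 8 genes and 7.97e-04 over all tested genes.

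**Figure D1:**
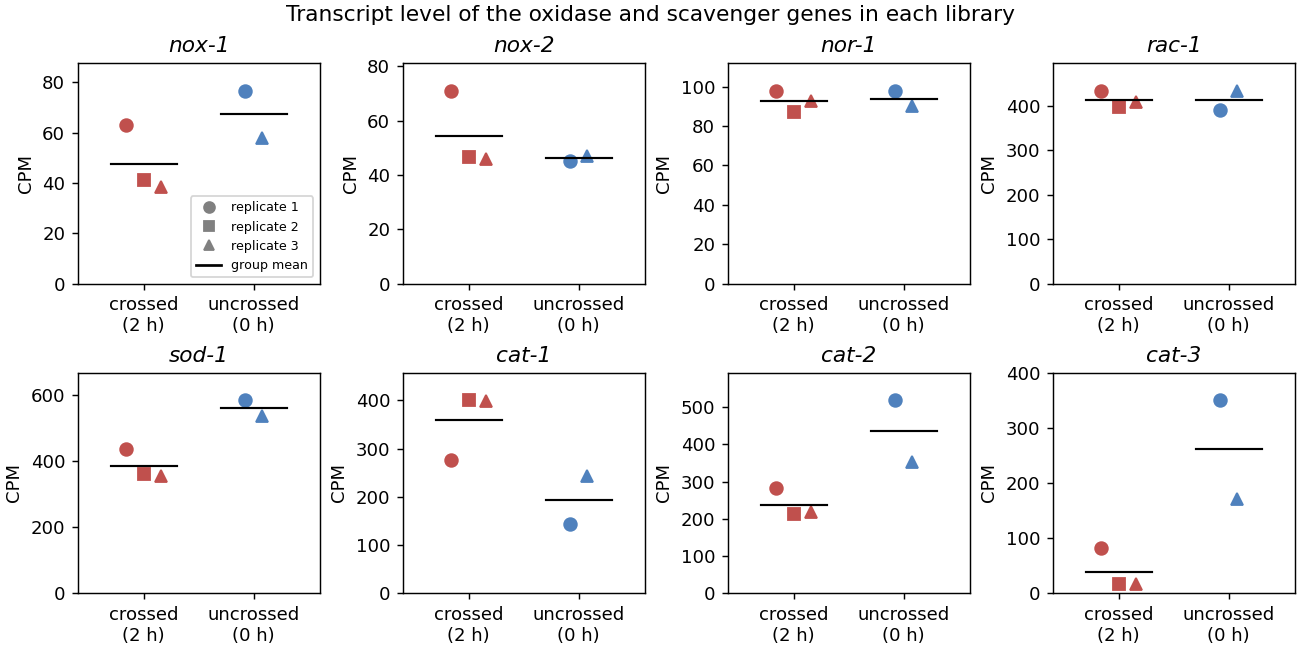
CPM of each of the 8 genes by library, with crossed libraries (red, 2 h) left of uncrossed libraries (blue, 0 h), symbols for the replicate number and black lines for the group means; each panel starts at 0. In cat-3 the crossed libraries lie at 15.9 to 82.1 CPM, below the uncrossed libraries at 172.2 and 351.2 CPM, while in rac-1 and nor-1 the groups overlap.

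The oxidase genes themselves did not separate the groups. The gene nox-1 had 63.1, 41.1 and 38.4 CPM in crossed replicates 1, 2 and 3, against 76.6 and 58.0 CPM in uncrossed replicates 1 and 3. Crossed replicate 1 lay above uncrossed replicate 3, so the groups overlapped, while crossed replicates 2 and 3 were the lowest of all libraries. Its means were 47.6 ± 13.5 CPM in crossed libraries (SD, n = 3) and 67.3 ± 13.2 CPM in uncrossed libraries (SD, n = 2). The log2 fold change of crossed over uncrossed was -0.50 (SE 0.25, edgeR adjusted p = 0.307). It was -0.28 without uncrossed replicate 1 and -0.76 without crossed replicate 1, with adjusted p values of 0.758 and 0.0575 by edgeR.

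The other oxidase gene, nox-2, had 71.1, 46.7 and 45.8 CPM in crossed replicates 1, 2 and 3, against 45.3 and 46.9 CPM in uncrossed replicates 1 and 3. Crossed replicate 1 stood above the other 4 libraries, which were nearly level. The log2 fold change of 0.24 (SE 0.22) had an adjusted p of 0.527 by edgeR, and it was 0.0044 without crossed replicate 1.

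The oxidase genes were also compared with each other inside each library, since such a ratio does not depend on how libraries are scaled. The log2 ratio of nox-1 to nox-2 counts was -0.17, -0.18 and -0.25 in crossed replicates 1, 2 and 3, against 0.76 and 0.31 in uncrossed replicates 1 and 3. All 3 crossed libraries thus had fewer nox-1 than nox-2 counts, and both uncrossed libraries had more. Taken singly, 41.9% of all tested genes had groups apart in CPM, and the share among gene pairs was not computed. The means were -0.20 ± 0.044 in crossed libraries (SD, n = 3) and 0.53 ± 0.32 in uncrossed libraries (SD, n = 2), a difference of -0.73. The two-sided exact permutation p was 0.1, the smallest that the 10 splits allow, and 0.267 after adjustment over the 4 ratios computed. The gene spans are 3478 and 3480 bp, so these count ratios are close to ratios per length.

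The genes that regulate the oxidases were among the steadier transcripts. The gene nor-1, which codes for the regulatory subunit, had 97.9, 86.9 and 92.8 CPM in crossed replicates 1, 2 and 3, against 97.6 and 90.1 CPM in uncrossed replicates 1 and 3. The gene rac-1, which codes for a small GTPase that activates NADPH oxidases and acts in polar growth, had 434.7, 398.8 and 409.0 CPM in crossed replicates 1, 2 and 3, against 392.2 and 434.3 CPM in uncrossed replicates 1 and 3. For both genes the groups overlapped, with replicate 1 the highest crossed library. The log2 fold changes were -0.020 (SE 0.10, edgeR adjusted p = 0.914) for nor-1 and 0.0032 (SE 0.12, edgeR adjusted p = 0.988) for rac-1. The SD of log2 CPM over the 5 libraries was 0.074 for nor-1 and 0.069 for rac-1, and only 7.92% and 6.58% of the 6797 genes with a mean of at least 10 CPM had a smaller one. The log2 ratio of nox-1 to nor-1 counts averaged -0.99 ± 0.33 in crossed libraries (SD, n = 3) and -0.49 ± 0.20 in uncrossed libraries (SD, n = 2). Crossed replicate 1, at -0.63, lay just above uncrossed replicate 3, at -0.64 (two-sided exact permutation p = 0.3, 0.3 after adjustment over 4 ratios).

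Among the scavengers, sod-1 codes for the cytosolic copper and zinc superoxide dismutase and was the most abundant of the 8 transcripts per kb of gene span. It had 435.5, 361.2 and 355.4 CPM in crossed replicates 1, 2 and 3, against 583.1 and 536.8 CPM in uncrossed replicates 1 and 3. Every crossed library lay below both uncrossed libraries. The means were 384.0 ± 44.7 CPM in crossed libraries (SD, n = 3) and 560.0 ± 32.7 CPM in uncrossed libraries (SD, n = 2). The log2 fold change was -0.54 (SE 0.14) and the adjusted p was 0.161 in edgeR and 0.00725 in DESeq2. Without crossed replicate 1 it was -0.64, with an adjusted p of 0.0439 by edgeR, in a fit that called 8.84% of its 8616 tested genes. Leaving out crossed replicate 2 or 3 instead gave an adjusted p of 0.484 or 0.494 by edgeR.

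The gene cat-1 was higher in every crossed library than in either uncrossed library. It had 275.9, 400.3 and 399.2 CPM in crossed replicates 1, 2 and 3, against 142.5 and 244.0 CPM in uncrossed replicates 1 and 3. Crossed replicate 1 stood nearer to uncrossed replicate 3 than to the other crossed libraries. The means were 358.5 ± 71.5 CPM in crossed libraries (SD, n = 3) and 193.2 ± 71.8 CPM in uncrossed libraries (SD, n = 2). The log2 fold change was 0.89 (SE 0.29) and the adjusted p was 0.190 in edgeR and 0.0372 in DESeq2. It was 0.55 without uncrossed replicate 1 and 1.33 without uncrossed replicate 3. The libraries ranked alike in cat-1 and in the summed conidial markers, an order that 6.58% of the tested genes shared. The markers eas, con-6 and con-13 had this order, while con-8 and con-10 did not. The part of conidial RNA in the level of cat-1 was not tested.

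The catalase-peroxidase gene cat-2 ranked the libraries the opposite way, in an order that 5.83% of the tested genes shared. It had 282.9, 212.7 and 218.7 CPM in crossed replicates 1, 2 and 3, against 518.7 and 351.9 CPM in uncrossed replicates 1 and 3. Every crossed library was below both uncrossed libraries, and the uncrossed libraries were themselves 1.47-fold apart. The means were 238.1 ± 38.9 CPM in crossed libraries (SD, n = 3) and 435.3 ± 117.9 CPM in uncrossed libraries (SD, n = 2). The log2 fold change was -0.87 (SE 0.22) and the adjusted p was 0.161 in edgeR and 0.00772 in DESeq2. It was -0.56 without uncrossed replicate 1 and -1.12 without uncrossed replicate 3, with adjusted p values of 0.495 and 0.0714 by edgeR.

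The widest range of the 8 genes was in cat-3. It had 2926, 590 and 436 counts in crossed replicates 1, 2 and 3, against 10320 and 7212 counts in uncrossed replicates 1 and 3. On the CPM scale these were 82.1, 17.2 and 15.9 CPM in crossed replicates 1, 2 and 3, against 351.2 and 172.2 CPM in uncrossed replicates 1 and 3. Each crossed library was below both uncrossed libraries, by at least 2.1-fold. Libraries within a group also differed widely, by 5.16-fold among the crossed and by 2.04-fold among the uncrossed libraries.

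The group means of cat-3 were 38.4 ± 37.8 CPM in crossed libraries (SD, n = 3) and 261.7 ± 126.6 CPM in uncrossed libraries (SD, n = 2). The log2 fold change was -2.77 (SE 0.81) and the adjusted p was 0.173 in edgeR and 0.0539 in DESeq2. Only 0.567% of the 8638 tested genes had a larger fold in either direction, and 41 genes lay lower. The SD of its log2 CPM over the 5 libraries exceeded that of 99.7% of the 6797 genes with a mean of at least 10 CPM. The result depended on crossed replicate 1. Without it the crossed libraries were 15.8-fold lower and the adjusted p was 0.0259 by edgeR, in a fit that called 8.84% of its 8616 tested genes. Leaving out crossed replicate 2 or 3 instead gave an adjusted p of 0.483 or 0.488 by edgeR. Without uncrossed replicate 1 the crossed libraries were 4.48-fold lower.

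**Figure D2:**
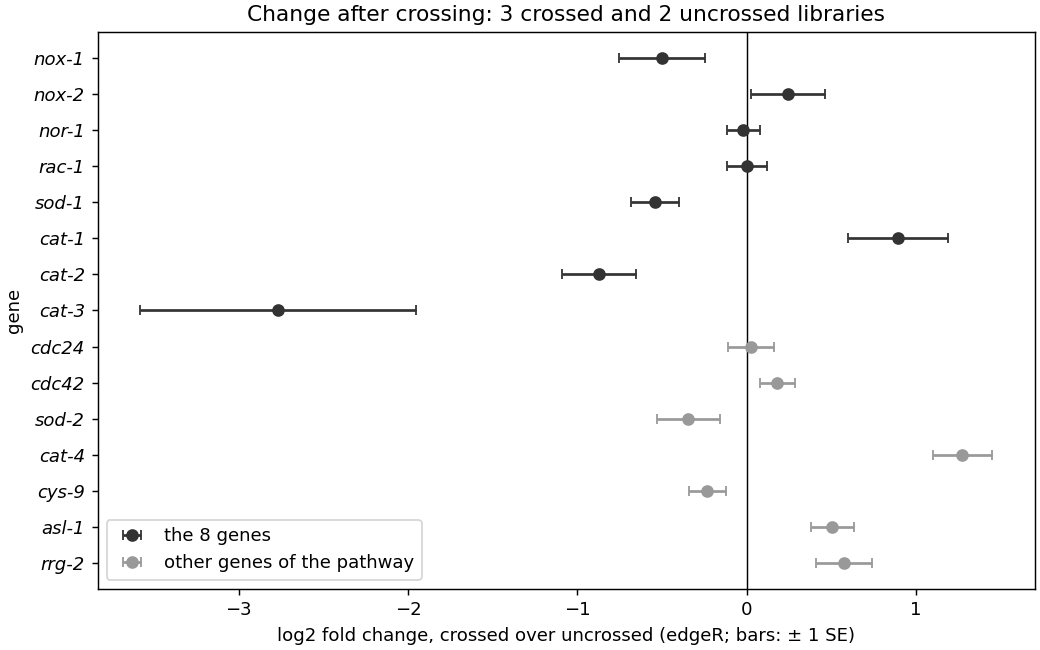
Log2 fold change of crossed over uncrossed libraries for the 8 genes (black) and 7 other genes of the pathway (grey), with bars of 1 SE from edgeR's quasi-likelihood fit. The point of cat-3 lies at -2.77 with the widest bar, cat-1 and cat-4 lie above 0 at 0.89 and 1.27, and nor-1 and rac-1 lie close to 0.

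The make-up of the catalase transcripts was examined next, since cat-1 and cat-3 lay in opposite directions. Levels of different genes were set side by side per length, as CPM per kb of gene span. Of the summed level of cat-1, cat-2 and cat-3, cat-1 took 43.8, 63.9 and 63.4% in crossed replicates 1, 2 and 3, against 14.6 and 32.6% in uncrossed replicates 1 and 3. The share of cat-3 was 11.9, 2.51 and 2.31% in crossed replicates 1, 2 and 3, against 32.9 and 21.0% in uncrossed replicates 1 and 3. The share of cat-2 averaged 37.4% ± 6.01 in crossed libraries (SD, n = 3) and 49.4% ± 4.31 in uncrossed libraries (SD, n = 2). The groups did not overlap for any of the 3 shares. For cat-1 this follows from its higher level, and the lower levels of cat-2 and cat-3, in every crossed library. The 3 shares make up a whole, so they are not separate results. The summed level was nearly equal among crossed libraries, at 215.0, 213.5 and 214.8 CPM per kb in replicates 1, 2 and 3, against 332.9 and 255.5 CPM per kb in uncrossed replicates 1 and 3.

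Within libraries, the log2 ratio of cat-1 to cat-3 counts was 1.75, 4.54 and 4.64 in crossed replicates 1, 2 and 3, against -1.30 and 0.50 in uncrossed replicates 1 and 3. Crossed replicate 1 again stood between the other crossed libraries and the uncrossed ones. That the groups were apart in this ratio follows from the CPM of both genes. The difference of the means was 4.04 on the log2 scale (two-sided exact permutation p = 0.2, 0.267 after adjustment over 4 ratios). The log2 ratio of cat-2 to cat-3 counts was 1.78, 3.63 and 3.77 in crossed replicates 1, 2 and 3, against 0.56 and 1.03 in uncrossed replicates 1 and 3, with the same p values by the exact permutation test. With 3 libraries against 2 no single value can reach a p under 0.1 in this test, so none of the 4 ratios could pass a threshold of 0.05.

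**Figure D3:**
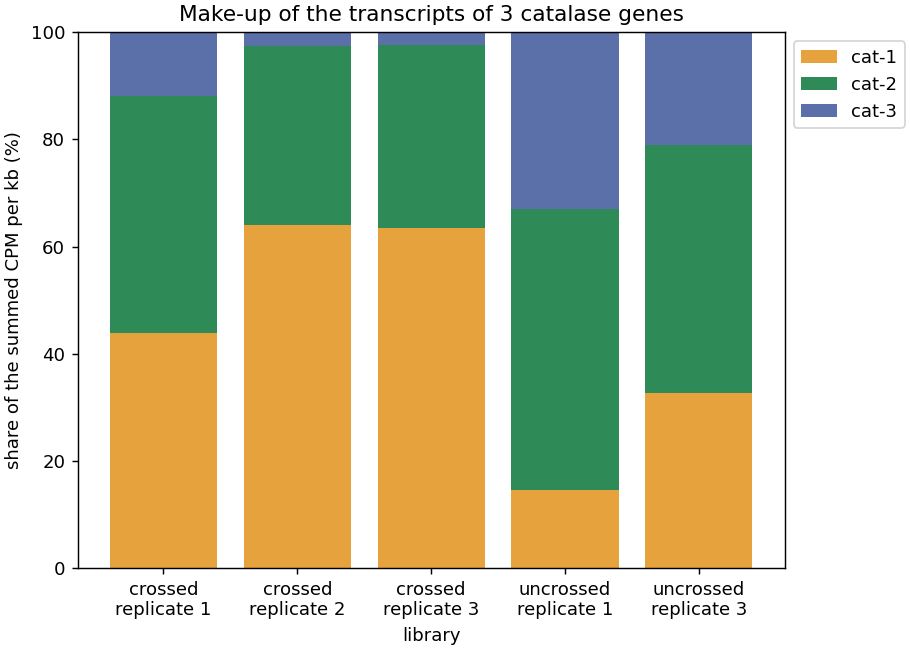
Share of cat-1, cat-2 and cat-3 in their summed CPM per kb of gene span, in percent, in each library, with crossed libraries left of uncrossed libraries. The cat-1 part of the bar is 43.8% or more in crossed libraries, against 32.6% or less in uncrossed libraries, and the cat-3 part is 11.9% or less in crossed libraries, against 21.0% or more in uncrossed libraries.

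Per kb of gene span, sod-1 was the highest of the 8 genes in both groups, with 244.0 ± 28.4 CPM per kb in crossed libraries (SD, n = 3) and 355.8 ± 20.8 CPM per kb in uncrossed libraries (SD, n = 2). The order of mean levels in crossed libraries was sod-1, rac-1, cat-1, cat-2, nor-1, nox-2, nox-1 and cat-3. In uncrossed libraries it was sod-1, rac-1, cat-2, cat-3, cat-1, nor-1, nox-1 and nox-2. In crossed libraries the ranges of neighbouring genes overlapped between cat-1 and cat-2, between nox-2 and nox-1 and between nox-1 and cat-3. In uncrossed libraries they overlapped between cat-3 and cat-1 and between nor-1 and nox-1. The gene cat-3 averaged 11.97 ± 11.8 CPM per kb in crossed libraries (SD, n = 3), the last place, and 81.6 ± 39.5 CPM per kb in uncrossed libraries (SD, n = 2), place 4 of 8. Over all 5 libraries sod-1 stood above 98.2% and rac-1 above 96.9% of the 8480 tested protein-coding genes, whereas nox-1 and nox-2 were near the middle, above 53.3% and 50.1%.

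**Figure D4:**
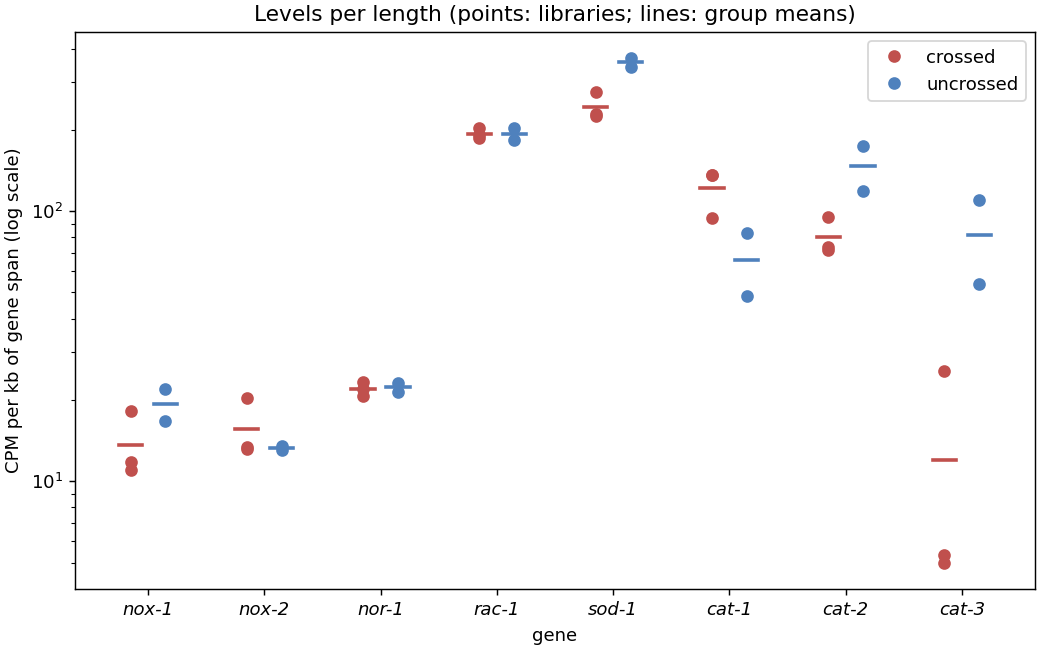
CPM per kb of gene span on a log axis for the 8 genes, with crossed libraries (red) left of uncrossed libraries (blue), points for libraries and lines for group means. The oxidase and nor-1 transcripts lie between 11.1 and 23.3 CPM per kb, below sod-1 and rac-1 at 183.6 CPM per kb and above, and cat-3 spans 4.96 to 109.6 CPM per kb.

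Other genes of the pathway were taken from a list of 9 planned genes and a search of gene symbols and synonyms, which added none. Protein names were not searched, so scavengers that the gene table names by locus tag alone could not be found. Of the planned genes, 7 carry a fitting name in the gene table and make up the list. The other 2, NCU06593 and NCU03905, carry none there, so they were left out of it and are given by locus tag alone. By edgeR 0 of the 7 passed the adjusted test (0.0463% of all tested genes did). At an unadjusted p under 0.05 there were 3, cat-4, asl-1 and rrg-2, all higher in crossed libraries (10.3% of all tested genes), and DESeq2 called these 3 (5.51% of all genes were called higher). The groups were apart in CPM in 5 of the 7, against 41.9% of all tested genes. Of these, 4 were higher in crossed libraries (cat-4, asl-1, rrg-2 and cdc42), against 21.3%, and 1 was lower (cys-9), against 20.6%. The median log2 fold change of the list was 0.18, against 7.97e-04 over all tested genes. With NCU06593 and NCU03905 counted in, which was chosen after their values were seen, 0 of 9 passed the adjusted test by edgeR, 4 did so at an unadjusted p of 0.05 and 4 in DESeq2, each higher in crossed libraries, and the median was again 0.18.

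The added call was NCU06593, which had 136.9, 157.0 and 156.5 CPM in crossed replicates 1, 2 and 3, against 95.4 and 98.6 CPM in uncrossed replicates 1 and 3. Every crossed library was above both uncrossed libraries, by at least 1.39-fold. Its log2 fold change was 0.63 (SE 0.11), at an edgeR adjusted p of 0.128 and a DESeq2 adjusted p of 5.06e-05. Without crossed replicate 1 its adjusted p was 0.0286 by edgeR, in a fit that called 8.84% of its 8616 tested genes. Leaving out crossed replicate 2 or 3 instead gave 0.483 or 0.488 by edgeR. Its log2 fold change was 0.61 without uncrossed replicate 1 and 0.65 without uncrossed replicate 3. Its unadjusted p of 0.00136 in edgeR was smaller than those of asl-1 (0.00867) and rrg-2 (0.0148). The groups overlapped in NCU03905, with a log2 fold change of -0.057 (SE 0.11, edgeR adjusted p = 0.761).

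Among the named scavengers, a further catalase gene, cat-4 (NCU05169), had 67.0, 87.5 and 82.4 CPM in crossed replicates 1, 2 and 3, against 28.7 and 36.7 CPM in uncrossed replicates 1 and 3. Every crossed library was above both uncrossed libraries, by at least 1.83-fold. The log2 difference came to 1.27 (SE 0.18). The adjusted p was 0.0950 in edgeR, 1.28e-07 in DESeq2 and 0.0179 in a fit with the replicate number as a block, which called 3.08% of all tested genes. In the block fit crossed replicate 2 has no uncrossed partner, so the group difference rests on the libraries numbered 1 and 3. Without crossed replicate 1 the adjusted p of cat-4 was 0.0259 by edgeR, in a fit that called 8.84% of its 8616 tested genes. Leaving out crossed replicate 2 or 3 instead gave 0.440 or 0.445 by edgeR. The log2 fold change of cat-4 was 1.11 without uncrossed replicate 1 and 1.46 without uncrossed replicate 3. The thioredoxin reductase gene cys-9 (NCU08352) had a log2 fold change of -0.23 (SE 0.11, edgeR adjusted p = 0.276), and of -0.11 without uncrossed replicate 1. That of sod-2 (NCU01213), which codes for the mitochondrial manganese superoxide dismutase, was -0.34 (SE 0.19, edgeR adjusted p = 0.327), and its groups overlapped. Without uncrossed replicate 1 the value for sod-2 was -0.58, and without uncrossed replicate 3 it was -0.058.

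Among the named regulators, asl-1 (NCU01345), listed with the synonym atf-1 and coding for a bZIP transcription factor of the stress response, was nearly constant among the crossed libraries. It had 164.3, 164.9 and 164.8 CPM in crossed replicates 1, 2 and 3, against 102.7 and 129.5 CPM in uncrossed replicates 1 and 3. The fitted log2 difference was 0.50 (SE 0.13), at an edgeR adjusted p of 0.161 and a DESeq2 adjusted p of 0.0143. The response regulator gene rrg-2 (NCU02413) had a log2 fold change of 0.58 (SE 0.17), at an edgeR adjusted p of 0.171 and a DESeq2 adjusted p of 0.0390. The small GTPase gene cdc42 (NCU06454) and the exchange factor gene cdc24 (NCU06067) had log2 fold changes of 0.18 (SE 0.10, edgeR adjusted p = 0.345) and 0.025 (SE 0.13, edgeR adjusted p = 0.919), and plain library sizes turned the sign of both. The libraries ranked in asl-1, rrg-2, cat-4, cdc42 and NCU06593 as they did in the summed conidial markers. Of all tested genes 6.58% shared this order. It places every crossed library above both uncrossed libraries, as was so in 21.3% of all tested genes. The markers con-8 and con-10 ranked the libraries otherwise. The part of conidial RNA in the levels of these pathway genes was not tested.

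The authors' deposited table gives a relative expression per gene and stage with a lower and an upper limit, the lower stage being at 1. It comes from the same libraries, so it is not independent evidence. For cat-3 the authors' deposited table gives 1 (limits 0.967 to 1.03) for crossed and 6.60 (6.57 to 6.63) for uncrossed cultures. For cat-1 the authors' deposited table gives 1.505 (1.49 to 1.52) for crossed and 1 (0.987 to 1.013) for uncrossed cultures. In the authors' deposited table the limits lay apart in 7 of the 8 genes, against 75.3% of all genes with both estimates. Of these 1 (cat-1) was higher in crossed cultures, against 15.7% of all genes in the authors' deposited table, and 6 were lower, against 59.6%. The exception was nox-2, with 1.03 (1.009 to 1.06) for crossed and 1 (0.976 to 1.03) for uncrossed cultures in the authors' deposited table. For rac-1 and nor-1, whose CPM values overlapped between the groups, the authors' deposited table puts crossed cultures at 1 and uncrossed cultures at 1.155 (rac-1) and 1.153 (nor-1). The authors' deposited table has most genes lower in crossed cultures, while the TMM-scaled median log2 fold change over all tested genes was 7.97e-04. Its ratios and the TMM-scaled CPM are therefore not directly comparable.

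The fitted direction was the same in all 13 alternative fits for nox-1, nox-2, sod-1, cat-1, cat-2 and cat-3. The sign of nor-1 turned in 3 of the 13 and that of rac-1 in 5. With plain library sizes the median of all tested genes moved to -0.21, and nor-1 and rac-1 then had log2 fold changes of -0.23 and -0.20, both close to that median.

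**Figure D5:**
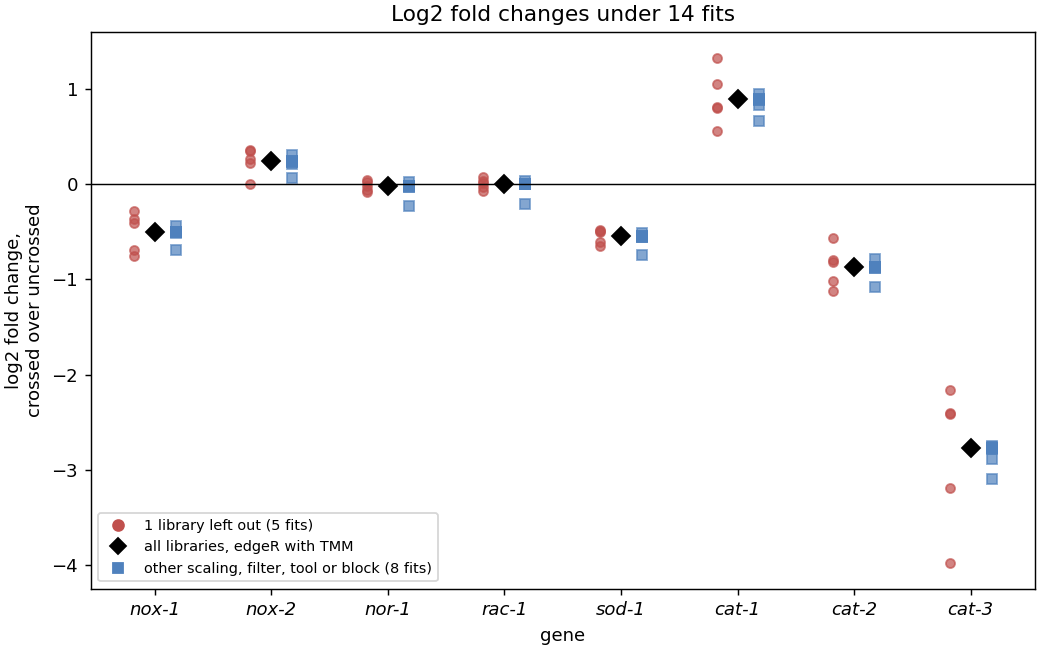
Log2 fold change of crossed over uncrossed libraries for the 8 genes in 14 fits, with black diamonds for edgeR with TMM on all libraries, red circles for fits without 1 library and blue squares for another scaling, filter, tool or block. The values of cat-3 run from -3.98 to -2.16 and those of cat-1 from 0.55 to 1.33, while nor-1 and rac-1 lie on both sides of 0.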

How the data were processed

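Per the labels' protocols, stranded Illumina libraries of total RNA were sequenced from both ends (101 bp). The authors deposited whole-number counts per gene for 5 libraries. The submitters' processing notes name CASAVA 1.8.2, fastp, HISAT2 2.1.0 and StringTie 1.3.3b without saying what each did. No build, annotation or strand setting is stated in these sources. The authors' second deposited table holds a ratio per stage with its limits, per the file headers. Of 10591 rows, 10590 matched the RefSeq gene table (NC12), used for symbols and gene spans. None of the 8 genes overlaps another annotated gene there, while asl-1 shares 318 bp with NCU01346, which had 0 counts. The mat_a1 row (6 values for 5 columns) was left out.

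Counts were tested with edgeR 4.0.16 (R 4.3.3): filterByExpr (8638 genes), TMM, robust quasi-likelihood fit with the group alone, two-sided, Benjamini-Hochberg adjustment over all genes, threshold 0.05. SE came from the F statistic. CPM use TMM-adjusted library sizes, and log2 values a prior count of 2. DESeq2 1.42.0 and limma 3.58.1 (voom), other scalings and filters, a replicate block and leaving out each library were alternatives. The fit was tried on simulated counts drawn independently, with no library standing apart as crossed replicate 1 did. It recovered 59 of 100 genes changed 2-fold and 91 of 100 changed 4-fold, with 12 false calls. A count of 3 equals 0.0717 to 0.110 CPM and covers counting error only. P-values measure the spread between plates. Members and lists were chosen with earlier results of these data known. All 8 genes were named. Of the other pathway genes, those past the threshold were to be named, and failing that the 3 of smallest p among scavengers and among regulators (cdc24 was added after its value was seen). Planned genes without a fitting name in the gene table, NCU06593 and NCU03905, were outside this rule and were added after their values were seen. Levels were planned per coding length and are given per gene span, since no protein table was used here.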

Additional observations from a re-analysis of the deposited data

How the results depend on the processing

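The count of all genes past the threshold was 4 in edgeR, 1019 with DESeq2, 266 with the replicate block and 0 to 762 when 1 library was left out. Leaving out crossed replicate 1 gave 762, leaving out uncrossed replicate 3 gave 192, and each of the other 3 left out gave 0 (edgeR adjusted p). Among the 8 genes the count was 0 in edgeR, 3 with DESeq2, 0 with the replicate block and 0 to 2 without 1 library. Among the 7 other pathway genes it was 0 in edgeR, 3 with DESeq2, 1 (cat-4) with the replicate block and 0 to 1 without 1 library. The counts for the 8 and the 7 genes were 0 under the other scalings, filters and limma-voom. What causes them to differ was not tested. A fit with 1 uncrossed library assumes that it varies like the crossed ones. The replicate block has no uncrossed partner for crossed replicate 2, so its group difference rests on the libraries numbered 1 and 3.

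The sign turned for nor-1 with the replicate block (0.024), without uncrossed replicate 1 (0.039) and without crossed replicate 2 (0.024), within a range of -0.078 to 0.039 without 1 library. It turned for rac-1 with DESeq2 size factors in edgeR (-0.0034), DESeq2 (-0.0035), plain library sizes (-0.20), without uncrossed replicate 1 (-0.069) and without crossed replicate 1 (-0.033), within a range of -0.069 to 0.078 without 1 library. For cdc24 it turned with plain library sizes (-0.18), without uncrossed replicate 1 (-0.14) and without crossed replicate 1 (-0.016), within a range of -0.14 to 0.21 without 1 library, and for cdc42 with plain library sizes (-0.039). For NCU03905 it turned without uncrossed replicate 3 (0.0015), within a range of -0.11 to 0.0015 without 1 library. The difference in the log2 ratio of nox-1 to nox-2 ran from -0.96 to -0.51 without 1 library. Deviations from the group means had a correlation across genes of 0.257 between the libraries numbered 1 and of 0.224 between those numbered 3. Between uncrossed replicate 3 and crossed replicate 2, which differ in number, it was 0.170. With only 2 like-numbered pairs, which mirror each other in the uncrossed group, these values cannot show whether like-numbered libraries were paired. Levels per coding length were not run.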

Other observations

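The genes whose profile over the 5 libraries was most like that of a member were found by the root mean square difference of centred log2 CPM among 6797 genes with a mean of at least 10 CPM. For nox-1 they were NCU03736 (0.047), NCU03388 (0.048) and NCU05062 (0.056). For cat-1 they were NCU06265 (0.044), NCU04266 (0.050) and NCU07661 (0.056). For cat-3 no profile was as close, and the nearest were NCU03643 (0.40), NCU03121 (0.59) and NCU00865 (0.60), with log2 fold changes of -1.90, -3.24 and -2.47. The gene table names all 9 by locus tag alone.

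Among the 8 genes the closest profiles were those of nor-1 and rac-1 (0.086), followed by nox-1 and sod-1 (0.17), nox-1 and cat-2 (0.20) and sod-1 and cat-2 (0.21). The most distant pair was cat-1 and cat-3 (2.31). The genes sod-1, cat-3 and cys-9 ranked the 5 libraries in one order, which 380 of the 8638 tested genes shared. Sharing an order is a description of 5 libraries and carries no test.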
